A study of Mus musculus with 4 samples.

Results

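Lhx1, Pax2, En1, Gata3, Tfap2b, Lbx1, Lmx1b and Tlx3 are 8 transcription factors that mark classes of spinal interneurons. They were taken as a set of known markers, with no threshold on their values but with earlier results of these data known, and are measured here by 11 probes out of 39429, as 8 of 32575 genes or identifiers. RNA was taken from spinal cord and duodenum of male mice aged 20 weeks, either WT littermates (IP6K2-WT) or mice carrying the IP6K2-KO allele, in which an exon of the kinase domain of inositol hexakisphosphate kinase 2 is deleted. Mice of both genotypes ate iVid-neo, a purified diet, during 1 week and then went without food for 48 h. Each genotype and tissue had 1 microarray with 1 colour, 4 arrays on 1 slide in all. Replicates of a group are thus missing, and differences between arrays are described without a test.

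Spinal interneurons arise from progenitor domains arranged from dorsal to ventral, and each class keeps a code of transcription factors as it settles in the dorsal or ventral horn. Lbx1 sets a broad dorsal field, within which Tlx3 and Lmx1b favour the glutamatergic fate, whereas Pax2 and Lhx1 accompany the GABAergic and glycinergic fate. Several of these factors also work elsewhere, as Gata3 does in T cells and innate lymphoid cells, and Lmx1b in serotonin neurons of the brainstem. Duodenum was the second tissue on the slide; it holds enteric neurons, which descend from the neural crest and not from the spinal cord.

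The start sites of these genes are shown first, because most of them share a feature that the choice of genes did not use, namely a dense run of CpG dinucleotides. RefSeq promoters of build GRCm38.p6, from 250 bases before to 50 bases after each start, were given for 7 of the 8 genes, in 9 windows. Lbx1 had no entry. Of the 9 windows, 6 held at least 20 CpG, against 26.5% of the 32851 promoters in the table, whose median was 7.0. Lhx1 held 31 CpG, Lmx1b 24, En1 23, Gata3 22 and Tlx3 18, while the 3 Pax2 windows held 7, 23 and 30. Tfap2b held 8, close to the median promoter. The CpG-poor Tfap2b and the CpG-rich Gata3 and Lhx1 are printed 5′ to 3′ on the strand of the gene, with each CpG in capitals, at chr1:19211804-19212103 (plus strand), chr2:9878551-9878850 (minus strand) and chr11:84525485-84525784 (minus strand).
Tfap2b: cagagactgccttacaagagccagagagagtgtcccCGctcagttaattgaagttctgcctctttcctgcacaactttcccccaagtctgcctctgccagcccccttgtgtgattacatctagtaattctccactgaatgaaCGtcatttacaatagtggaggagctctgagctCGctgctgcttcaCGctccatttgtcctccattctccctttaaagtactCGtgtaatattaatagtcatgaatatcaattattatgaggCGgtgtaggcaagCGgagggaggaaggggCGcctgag
Gata3: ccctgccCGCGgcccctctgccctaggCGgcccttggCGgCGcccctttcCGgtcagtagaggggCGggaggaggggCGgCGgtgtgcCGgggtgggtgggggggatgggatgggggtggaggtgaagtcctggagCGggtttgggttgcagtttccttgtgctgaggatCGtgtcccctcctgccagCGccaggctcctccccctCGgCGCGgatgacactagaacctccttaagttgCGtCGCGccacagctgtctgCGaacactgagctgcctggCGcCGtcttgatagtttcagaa
Lhx1: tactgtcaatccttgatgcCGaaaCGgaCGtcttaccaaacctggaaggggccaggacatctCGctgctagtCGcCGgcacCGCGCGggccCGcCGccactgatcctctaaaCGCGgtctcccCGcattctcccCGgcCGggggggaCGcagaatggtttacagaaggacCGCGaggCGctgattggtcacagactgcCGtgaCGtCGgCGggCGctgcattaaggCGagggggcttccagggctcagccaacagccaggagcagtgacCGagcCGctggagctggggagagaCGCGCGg

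Letters of 5 motifs were searched on both strands of these windows. GCCNNNGGC, the form bound by AP-2 proteins such as Tfap2b, was found in 3 of the 9 windows, 3 times in Gata3, 2 times in 1 window of Pax2 and 1 time in Tlx3, and in 16.6% of all promoters. CCAAT was found in 4 windows, those of En1, Lhx1, Lmx1b and Tlx3, and in 37.4% of all promoters. The homeodomain core TAATTA (5.29% of all promoters), the GATA core AGATAA (11.2%) and TATAAA (13.6%) were found in 0 of the 9 windows. These matches describe letters only.

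Both spinal cord arrays carried the markers of that tissue. The neuronal nuclear protein Rbfox3 gave processed signals of 17300 (WT) and 16464 (labelled KO), the myelin gene Mbp 2050 and 2466, and the astrocyte gene Gfap 17196 and 15403. All 10 gut epithelium markers, among them Vil1, were well above background on both duodenum arrays, a call that the scanner software makes for each spot. The 75th percentile of the signal was 905 and 971 on the spinal cord arrays, 68.0 on the WT duodenum array and 323 on the labelled KO duodenum array. Ip6k2 itself was higher, not lower, on the labelled KO spinal cord array, and the files do not say whether its probe lies in the deleted exon, so genotypes are given as labelled.

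Of the 8 factors, 7 were well above background on both spinal cord arrays, as were 74.2% of all genes (75.5% on the WT and 76.1% on the labelled KO array), and En1 was not. Lhx1 and Lmx1b were well above background on all 4 arrays, as were 49.7% of all genes. On the WT duodenum array 2 of 8 were well above background (51.8% of all genes), and on the labelled KO duodenum array 3 of 8 (65.6%). Lbx1, Tlx3, Pax2 and Tfap2b were well above background on both spinal cord arrays and on neither duodenum array. This pattern held for 4 of 8 factors, or 50%, against 12.1% of all genes and 25.4% of 71 other transcription factors of spinal interneuron classes. It is not particular to these factors. In marker lists of other cell types it ran from 0% (gut epithelium) to 44.4% (oligodendrocytes). Of 12 GABA and glycine neuron genes it held for 41.7%, and of 11 neuron markers for 9.09%.

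**Figure D1:**
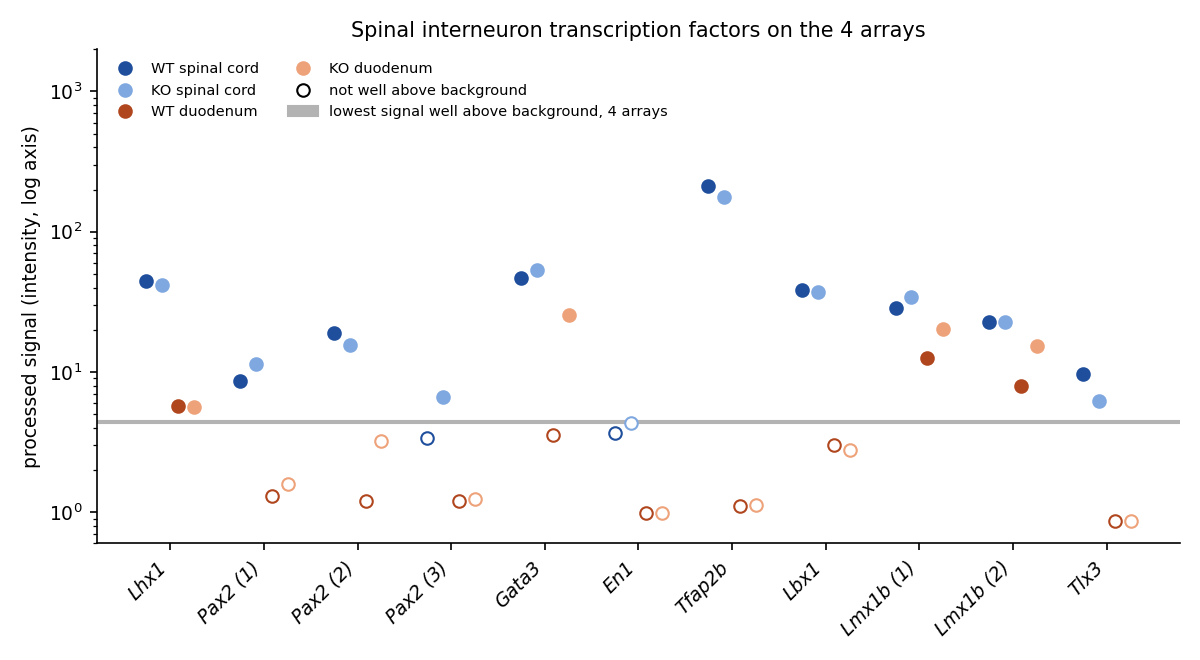
Processed signal (intensity, log axis) of the 11 probes on the 4 arrays, 1 point per array, with open points for probes not well above background and a grey line at the lowest signal well above background. Probes are numbered within a gene where it has several. The spinal cord points lie above the duodenum points for every probe, and Lhx1 and the 2 probes of Lmx1b alone stay well above background on all 4 arrays.

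Among the factors of inhibitory neurons, Lhx1, a LIM-homeodomain protein, had a processed signal of 44.9 on the WT spinal cord array, 41.9 on the labelled KO spinal cord array, 5.71 on the WT duodenum array and 5.65 on the labelled KO duodenum array. It was well above background on all 4, and the duodenum signals were just over the lowest signal so called (4.29 and 4.33). Pax2, a paired-domain factor, had 3 probes. Its brightest probe gave 19.1 (WT) and 15.5 (labelled KO) in the spinal cord and 1.20 and 3.23 in the duodenum, in the same order. A second probe gave 8.61 and 11.4 in the spinal cord and 1.31 and 1.58 in the duodenum. The dimmest gave 3.38 and 6.69 in the spinal cord, of which the first was not well above background, and 1.21 and 1.24 in the duodenum. None of the 6 duodenum values of Pax2 was well above background, although 3.23 exceeded all 153 negative control spots of its array, and the order of the 2 spinal cord arrays depended on the probe.

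Gata3, a zinc finger factor of ventral V2b interneurons, gave signals of 46.8 and 53.0 on the WT and labelled KO spinal cord arrays. In the duodenum it was 3.57 on the WT array, not well above background, and 25.5 on the labelled KO array, well above it. Tfap2b, the AP-2 protein of dorsal inhibitory neurons, gave 210 and 177 in the spinal cord. In the duodenum it gave 1.104 and 1.12, not well above background, where negative control spots had medians of 0.994 and 0.989.

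En1, the homeodomain factor of ventral V1 inhibitory neurons, was spotted 10 times on each array and was not well above background on any. Its mean signal was 3.68 (WT) and 4.36 (labelled KO) in the spinal cord, and 0.989 and 0.987 in the duodenum. In the spinal cord 1 of 9 used spots on the WT array and 2 of 8 on the labelled KO array were well above background, and in the duodenum 0 of 10 were on each. Yet the spinal cord spots were not at the level of the negative controls. The lowest used En1 spot, 2.30 on the WT array, exceeded 149 of 153 negative control spots, and the lowest on the labelled KO array, 4.06, exceeded 151 of 153. In the duodenum the lowest En1 spot, 0.893 and 0.889, exceeded 16 of 153 on each array. No fold is given for En1.

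**Figure D2:**
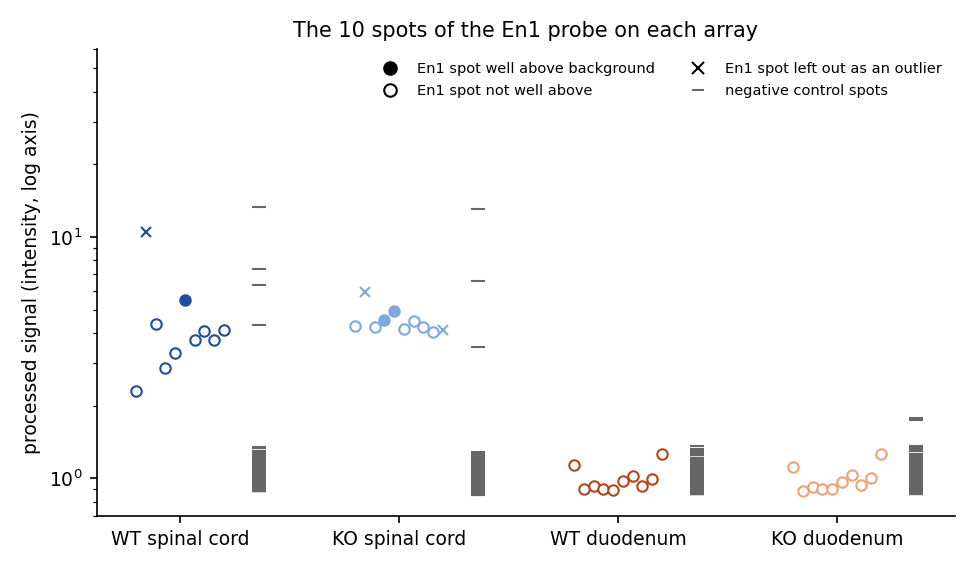
Processed signal (intensity, log axis) of the 10 En1 spots on each of the 4 arrays, beside the 153 negative control spots of that array (grey dashes); filled points were well above background and crosses were left out as outliers. Used En1 spots run from 2.30 to 5.46 and from 4.06 to 4.92 on the spinal cord arrays and lie among the negative controls on the duodenum arrays.

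Of the broad dorsal and the excitatory factors, Lbx1, the homeodomain factor of the dorsal field, had signals of 38.6 and 36.9 on the WT and labelled KO spinal cord arrays and of 3.01 and 2.76 in the duodenum. The duodenum values were not well above background but exceeded all 153 negative control spots of each array. Lmx1b, a LIM-homeodomain factor of excitatory dorsal neurons, was well above background on all 4 arrays by both of its probes. Its brighter probe gave 28.6 and 34.5 in the spinal cord and 12.5 and 20.3 in the duodenum. Its second probe gave 22.6 on each spinal cord array and 7.92 and 15.4 in the duodenum. Tlx3, the homeodomain factor that favours the glutamatergic over the GABAergic fate, gave 9.63 and 6.26 in the spinal cord and 0.867 on each duodenum array, within the range of the negative controls.

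The comparison of genotypes in the spinal cord asks whether these factors differ between the arrays labelled WT and KO. None of the 7 measured factors reached a 2-fold difference between the spinal cord arrays, where 2.28% of all genes were at least 2-fold higher and 0.865% at least 2-fold lower on the labelled KO array. Differences are labelled KO minus WT on the log2 scale, each array being set to its own 75th percentile. Each has a technical SD, estimated from 399 probes spotted 10 times per array, that covers spots and not mice. The median of the 7 was -0.20, against -0.04 for all 24165 genes well above background on both arrays, 10th to 90th percentile -0.30 to 0.32. On this scale 5 factors were lower and 2 higher on the labelled KO array. Under normexp background correction all 7 were past 2-fold lower, with a median of -1.91. The median gene was then -0.45, and 9653 of 25215 genes were at least 2-fold lower. The WT spinal cord array held local backgrounds of up to 15708, and with flagged local backgrounds replaced 0 of 7 were past 2-fold.

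Tlx3 had the lowest value, -0.72 with a technical SD of 0.27. Tfap2b was -0.35 with a technical SD of 0.075. The brightest Pax2 probe was -0.40 (technical SD 0.18), and these 3 factors were the ones more than 2 technical SD from 0. The second Pax2 probe, however, was 0.31 (technical SD 0.28) and the dimmest was higher on the labelled KO array by at least 0.48 (technical SD 0.51), so Pax2 has no settled direction. Tlx3 was -0.19 under normexp background correction with flagged local backgrounds replaced, an alternative chosen after seeing the data. Lhx1 was -0.20 (technical SD 0.12) and Lbx1 was -0.17 (technical SD 0.12). Lmx1b was 0.17 (technical SD 0.13) by its brighter probe and -0.10 (technical SD 0.14) by the other, and Gata3 was 0.08 (technical SD 0.12). The values of Lhx1, Lbx1, Lmx1b and Gata3 thus lay inside the 10th to 90th percentile of all genes, and those of Tlx3, Tfap2b and the brightest Pax2 probe lay below it.

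**Figure D3:**
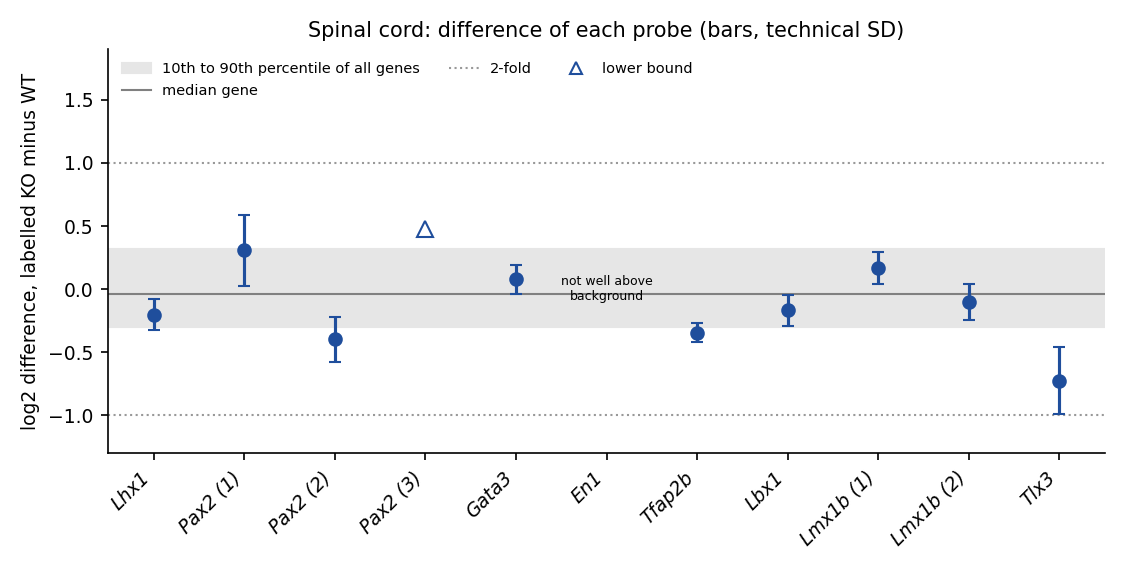
Log2 difference, labelled KO minus WT spinal cord, of each probe, with bars of 1 technical SD, the 10th to 90th percentile of all genes in grey (-0.30 to 0.32) and dotted lines at 2-fold. Tlx3 is lowest at -0.72, the 3 Pax2 probes fall on both sides of 0, and En1 did not reach the call of well above background on either array.

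The wider code of spinal interneurons was read from a list of 72 other factors, of which 71 were on the array and 60 well above background on both spinal cord arrays. None reached a 2-fold difference, 30 were above 0 and 30 below, and the median was -0.01. The furthest from 0 were Foxd3 (0.66, technical SD 0.096), a factor of V1 neurons and of neural crest, Lhx2 (0.63, technical SD 0.11), a factor of dorsal commissural neurons, Skor2 (-0.59, technical SD 0.12) and Tal1 (0.59, technical SD 0.066), which acts with Gata factors in V2b neurons and in blood cells. Gata2, which precedes Gata3 in V2b neurons, was 0.06 with signals of 221 and 248. Lhx5, the nearest relative of Lhx1 in this code, was -0.20, with signals of 728 and 678.

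Of 17 paralogs of the 8 factors, 8 were well above background on both spinal cord arrays, with a median of -0.04. Gata1, the erythroid GATA factor, was the only one past 2-fold, with signals of 40.8 (WT) and 169 (labelled KO) and a difference of 1.95 (technical SD 0.098). Lbx2 was 0.37, Pax8 -0.28 and Gata5 -0.22. All 21 partner proteins, which bridge or repress LIM-homeodomain factors, GATA factors or Lbx1, were well above background on both spinal cord arrays, and 0 were past 2-fold. Their median was -0.02 and their range -0.29 (Rlim) to 0.79 (Lyl1, a relative of Tal1 in blood cells), with Tle4 at 0.31. Ldb1, which joins LIM-homeodomain proteins into dimers, was -0.19.

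The transmitter genes that these factors are known to accompany were past 2-fold in 0 cases. All 11 glutamate neuron genes were well above background and below 0, with a median of -0.10. The median gene was itself -0.04, so most genes measured on both arrays were below 0 too. Grp, the highest of the 11, was -0.01. The vesicular glutamate transporters Slc17a6 and Slc17a7 were -0.11 (technical SD 0.057) and -0.90 (technical SD 0.22), the latter with signals of 15.5 and 8.89. The peptide genes Tac2 and Nmu were -0.34 and -0.13. Of the 12 GABA and glycine neuron genes on the array 11 were measured on both, 9 of them below 0, with a median of -0.12. The GABA-synthesizing enzymes Gad1 and Gad2 were -0.12 and -0.10, and the vesicular transporter Slc32a1 was -0.01, each within 0.1 of the median gene. Nos1 was -0.46, Penk -0.28 and Pvalb 0.23. The glycine transporter Slc6a5 had no probe under that name.

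Markers of other cells differed between the spinal cord arrays far more than these factors did. All 8 skeletal muscle markers measured on both arrays were above 0, with a median of 4.02, and their summed signal over the 11 listed genes was 3819 (WT) and 65055 (labelled KO). Acta1, skeletal actin, was 4.48 (256 and 6142), and Ckm, muscle creatine kinase, was 4.58. Schwann cell markers had a median of 3.07 over 6 genes and a summed signal of 10239 and 39380, with Prx, a gene of myelinating Schwann cells, at 5.23. By contrast, 11 neuron markers had a median of -0.06 and a range of -0.30 (Syt1) to 0.15 (Elavl3), Rbfox3 being -0.17. Motor neuron markers had a median of 0.01 (Chat 0.01, Isl1 0.22), oligodendrocyte markers 0.04 (Mbp 0.17, Mobp 0.31) and astrocyte markers -0.12 (Gfap -0.26). The part of muscle and nerve RNA in the values of the 8 factors was not tested, and in bulk tissue fewer cells of a class and less RNA per cell cannot be told apart.

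Cell types outside the spinal cord in which some of these factors are also known were checked too. Lmx1b and Gata3 act in serotonin neurons, and Tlx3 and Lmx1b in brainstem or sensory neurons. Of 8 markers of serotonin and noradrenaline neurons, Tph2, the enzyme that defines serotonin neurons of the brain, gave 9.11 (WT) and 6.91 (labelled KO), with a difference of -0.50. Slc6a4 was 1.57 (4.87 and 15.5), Dbh 1.84 (18.3 and 70.2) and Phox2a 0.61. Over the 7 measured on both arrays the median was 0.28, and the summed signal of the 8 was 726 and 982. Of 10 dorsal root ganglion markers, 7 were measured on both arrays with a median of -0.05 and a summed signal of 783 and 919. Scn10a, the sodium channel that defines nociceptors, did not reach the call of well above background on either array (1.99 and 5.24), while Trpv1 was -0.70, Scn11a -0.29 and Pou4f1 0.20. T cell and innate lymphoid cell markers, relevant to Gata3, had a median of 0.17 over 11 genes, with Cd3e at -0.42, Cd2 at 0.92, Il1rl1 at 0.91 and Cd3d at 0.87, and a summed signal of 69528 and 68303 that includes Thy1, a gene neurons also express. The part of these cells in the values of Gata3, Lmx1b and Tlx3 was not tested.

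**Figure D4:**
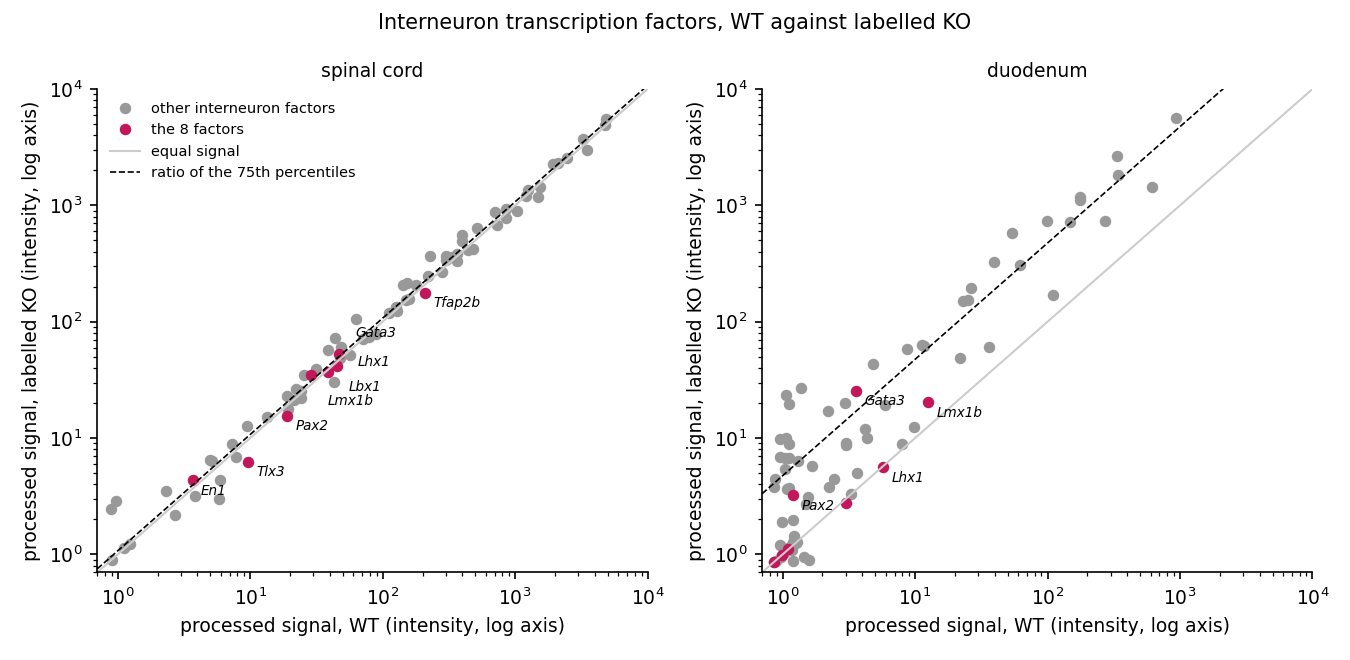
Processed signal (intensity, log axes) on the WT array against the labelled KO array of the same tissue, for the 8 factors (red) and 71 other interneuron factors (grey); solid lines mark equal signal and dashed lines the ratio of the 75th percentiles, 1.07 in the spinal cord and 4.75 in the duodenum. In the spinal cord the named points stay near both lines, whereas in the duodenum Lhx1 and Lmx1b lie between equal signal and the ratio of the 75th percentiles or on the former.

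In the duodenum the comparison of genotypes rests on 3 factors, and its direction depends on the scaling. The labelled KO array was 4.75 times brighter at the 75th percentile, a log2 ratio of 2.25, and 14.0% of all genes were well above background on it and not on the WT array. Lhx1 had almost equal unscaled signals (5.71 and 5.65), which became a difference of -2.26 (technical SD 0.36) after scaling. Both lay just over the lowest signal well above background (4.29 and 4.33), which after scaling was -3.99 (WT) and -6.22 (labelled KO). Equal signals at that limit thus differ by about as much as Lhx1 did. Lmx1b had higher unscaled signals on the labelled KO array (12.5 and 20.3), which became -1.55 (technical SD 0.20), and -1.29 (technical SD 0.25) by its second probe. These 2 factors were more than 2-fold lower on this scale, where 11.9% of genes were at least 2-fold lower and 7.2% at least 2-fold higher, and the median gene was -0.11. With arrays scaled on 8 spiked-in E1A control probes, chosen after seeing the data, Lhx1 was 0.74 and Lmx1b 1.46 higher on the labelled KO array, when the median gene was 2.89 higher.

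Relative to the median gene both factors were lower on the labelled KO array under each of the 9 settings tried, by -2.15 to -1.43 for Lhx1 and by -1.51 to -1.25 for Lmx1b. Gata3 was higher by at least 0.32 on the labelled KO array, less than its technical SD of 0.38, and had no bound under normexp correction. Lbx1, Tlx3, Pax2, En1 and Tfap2b were not well above background on either duodenum array and have no fold there. Lmx1b was thus higher on the labelled KO array in the spinal cord (0.17) and lower in the duodenum, whereas its second probe was below 0 in both.

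**Figure D5:**
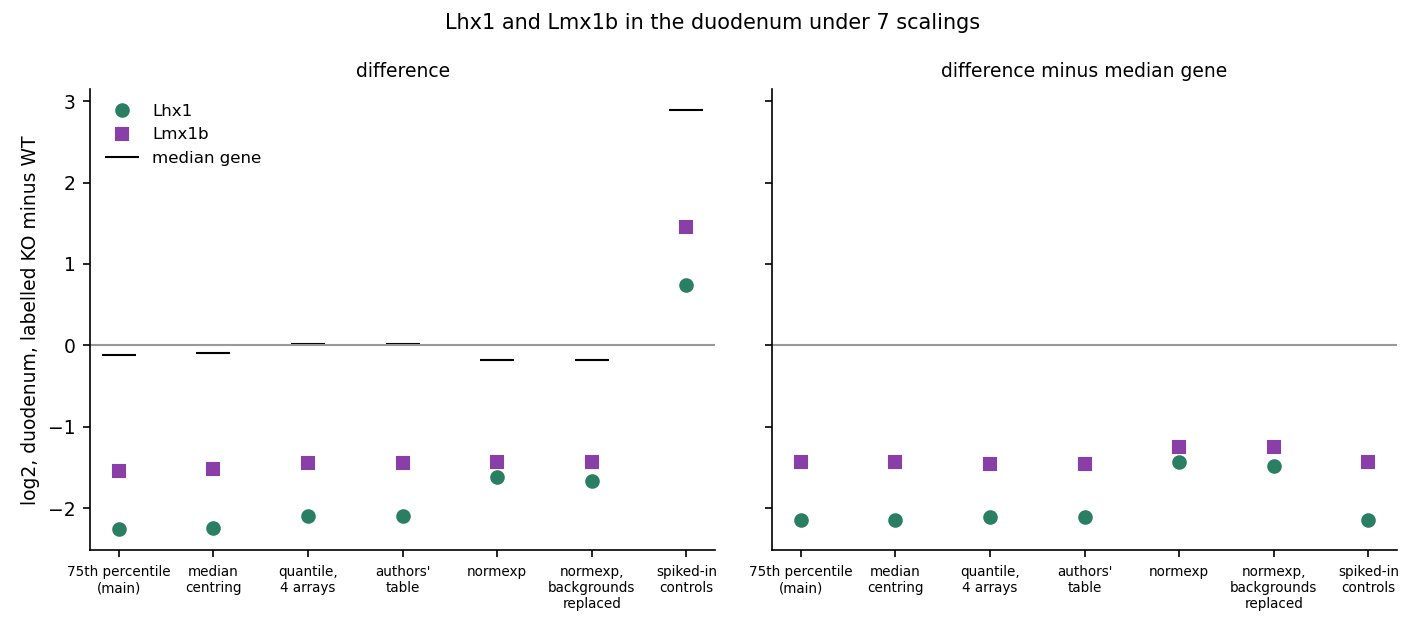
Log2 difference, labelled KO minus WT duodenum, of Lhx1 (circles) and Lmx1b (squares) under 7 scalings, with the median gene as a dash (left), and the same minus the median gene (right). Only scaling on the spiked-in controls puts both factors above 0, at 0.74 and 1.46, with the median gene at 2.89. Minus the median gene both stay below 0 under all 7, where scalings that only shift a whole array coincide by construction.

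Of the 71 other interneuron factors, 35.2% were well above background on the WT and 60.6% on the labelled KO duodenum array, against 51.8% and 65.6% of all genes. Of the 71, 25 were well above background on both arrays, with a median of 0.24, and 18 on 1 array only. Of these 43 factors, 1 was at least 2-fold higher and 6 at least 2-fold lower on the labelled KO array. Of all genes well above background on at least 1 duodenum array, 7.2% were at least 2-fold higher and 11.9% at least 2-fold lower. Nr4a2, a nuclear receptor, was 1.17, with signals of 54.4 and 582. The 6 lower were Uncx (-2.06), Hmx2 (-1.91), Barhl1 (-1.63), Hmx3 (-1.5), Gata2 (-1.11) and Maf (-1.04), whose unscaled signals were all higher on the labelled KO array, as for Uncx (7.90 and 8.98). Of the paralogs, Gata5, a factor of gut epithelium, was -2.65 (669 and 505), En2 -1.74, Tlx2, a factor of enteric neurons, -1.31 (28.1 and 53.8), and Lmx1a was at least 1.07 higher. The partner proteins Ssbp4 (-1.18), Zfpm1 (-1.17), Lyl1 (-1.14) and Tle3 (-1.11) were among those past 2-fold lower, and Pbx3 (1.36) was past 2-fold higher. Scaling on the spiked-in controls adds 3.01 to every difference in the duodenum, which turns each of these lower values above 0.

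Cell markers in the duodenum are given for comparison. Of 9 enteric neuron markers 7 were measured on both arrays, with a median of -0.32 and a summed signal of 147 (WT) and 526 (labelled KO). T cell and innate lymphoid cell markers had a median of 0.02 over 12 genes, with Cd3e at -0.51 and Cd8a at 1.24, and a summed signal of 3041 and 10319. Gut epithelium markers had a median of -0.08 over 10 genes, Vil1 being 0.20 and Fabp2 -1.81. With spiked-in controls the medians of the enteric neuron and gut epithelium markers were 2.68 and 2.92. Their part in the values of Gata3, Lhx1 and Lmx1b was not tested.

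Between the tissues, unscaled signals of all 8 factors were higher on the spinal cord array than on the duodenum array of the same genotype. The 75th percentile was itself 13.3 times higher on the WT spinal cord array than on the WT duodenum array, and 3.01 times higher for the arrays labelled KO. After scaling, Tfap2b alone was past 2-fold higher in WT spinal cord, by at least 1.88 on the log2 scale, and Lmx1b alone past 2-fold lower, at -2.54 (technical SD 0.17) and -2.22 by its second probe, while Lhx1 was -0.76 (technical SD 0.29). At least 2-fold higher in WT spinal cord were 23.1% of all genes and at least 2-fold lower 30.2%, with a median gene of -0.63. Lbx1, Tlx3, Pax2 and Gata3 have no fold in WT, because probes called above background on the WT duodenum array began only at a normalized log2 value of -3.99.

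On the arrays labelled KO, where they began at -6.22, Tfap2b was at least 3.77 higher in the spinal cord, Lbx1 at least 1.5 (technical SD 0.40) and Pax2 at least 0.25, less than its technical SD of 0.40. Lhx1 was 1.30 higher (technical SD 0.25), Gata3 was -0.53 (technical SD 0.14) and Lmx1b -0.82 (technical SD 0.16). Thus 3 of 7 were at least 2-fold higher, against 25.4% of all genes, and 0 at least 2-fold lower, against 30.3%, with a median gene of -0.30. With spiked-in controls 7 of 7 factors in WT and 6 of 7 on the arrays labelled KO were past 2-fold higher in spinal cord. So were 23280 of 25218 genes in WT and 16668 of 25719 on the arrays labelled KO, with median genes of 4.41 and 1.56. Tfap2b was higher in the spinal cord under every setting that gave it a value, 7 in WT and 9 on the arrays labelled KO. Lmx1b was below the median gene under all 9 settings in both genotypes. Settings that shift a whole array give the same value relative to the median gene by construction.

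The genes whose pattern over the 4 arrays was most like the mean of the 7 detected factors were sought among 16304 candidates, with values under the lowest one well above background set to that value. In WT duodenum this held for 5 of the 7 factors and for 4 of the 5 nearest genes, so the likeness rests largely on that shared limit. The nearest were Impg2, Rprl1, P4ha3, Meltf and Iqck, with a root mean square distance of 0.042 to 0.059 on the log2 scale. Impg2, a matrix proteoglycan of photoreceptors, gave 28.6 and 26.1 in the spinal cord and 0.956 and 5.51 in the duodenum. Among the factors Lhx1 was nearest to their mean, at 0.27, and Tfap2b furthest, at 1.49. Lmx1b lay at 0.79 and Tlx3 at 0.87.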

How the data were processed

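Per the labels, Cy3-labelled cRNA from 4 RNA samples was hybridized to 1-colour Agilent arrays and read with Agilent Feature Extraction 11.5.1.1. The authors deposited the scanner output, whose processed signal is an intensity already corrected for background and for spatial trends, as well as 1 table on the log2 scale. The deposited log2 table matched log2 signals normalized by quantiles over the 4 arrays, with a median deviation of 0.0010 for detected probes in the spinal cord, where 6 probes of other genes carry each other's names and were not used from it. The 11 probes of the 8 genes deviated by up to 0.0018 there and by up to 0.53 in the duodenum. Its column medians were 5.11 to 5.12.

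Control spots and outlier spots (89 to 133 of 43020 per array) were left out, each probe took the mean log2 signal of its spots, and values were set relative to the array's 75th percentile. Of 26391 probes with a RefSeq mRNA accession, 25868 were named through the GRCm38.p6 annotation. Where a gene had several probes, the one brightest on average stands for it. A probe well above background on 1 array of a pair gives a bound: on the other array its own value is used, or that array's lowest value well above background where this is higher. No fold is given where the bound is a fold of 1 or less, or where neither array is well above background. The number of arrays limits the precision. The technical SD is that of a difference between the arrays of a pair. For each array it takes the median SD of the 50 probes nearest in brightness among 399 probes spotted 10 times. The probe's own spot SD is taken where it was spotted that often. Either is divided by the root of the number of spots used. The values of both arrays are combined as the root of the sum of their squares.

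The 8 genes and the lists were chosen with earlier results of these data known. The rule for named genes took all 8, from each other list up to 4 genes well above background on both spinal cord arrays and furthest from 0 there, any gene past 2-fold in either tissue, a set of markers and the 5 genes most alike in pattern; for lists of other cell types only some of these are printed, and Lhx5, Ldb1 and a few others were named for their relation to the 8 after their values were seen. Some genes that the rule takes are not reported here. Alternatives were median centring, quantile normalization over all arrays or within each tissue, limma 3.58.1 normexp correction (offset 50, R 4.3.3), the authors' table, averaging all probes per gene, other filters and folds, and 2 added once the data had been seen, namely scaling on spiked-in controls and normexp after replacing flagged local backgrounds. The difference and count functions were tested on simulated data. Python 3.11.15, numpy 2.4.6 and pandas 2.3.3 were used. All arrays share 1 slide, so no batch could be separated.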

Additional observations from a re-analysis of the deposited data

Results flagged for a closer look

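Lmx1b was higher on the labelled KO array in the spinal cord (0.17) and lower in the duodenum (-1.55), a gap of -1.72 on the log2 scale (duodenum difference minus spinal cord difference). It stood out because the 2 tissues moved in opposite directions, which with 1 array per group was not tested. The second Lmx1b probe was -0.10 in the spinal cord and -1.29 in the duodenum, below 0 in both, and scaling on the spiked-in controls turned the duodenum value to 1.46.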

How the results depend on the processing

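No paired analysis was possible because a group is 1 array, and no replicate could be left out. Depth limits the duodenum most, since 51.6% of probes were well above background on the WT array and 66.3% on the labelled KO array. In the spinal cord, the median of the factors (-0.20) was -1.91 under normexp correction and -0.37 with spiked-in controls. Under normexp 7 of 7 were past 2-fold lower, as were 9653 of 25215 genes. At 1.5-fold, without that correction, 1 was lower. In the duodenum the median (-1.91) was -1.52 under normexp, -1.55 with backgrounds replaced and 1.1 with spiked-in controls (Lhx1 0.74, Lmx1b 1.46). With spiked-in controls 2 were past 2-fold higher and 0 lower, where 20607 of 21428 genes were higher. With no filter on dim probes 6 were lower. Of these, Lbx1, Tlx3, En1 and Tfap2b were not well above background on either duodenum array and had near-equal unscaled signals there. The 4.75-fold ratio of the 75th percentiles alone puts such signals past 2-fold lower.

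Between tissues in WT, the median of Lhx1 and Lmx1b (-1.65) was -0.58 under normexp (0 higher, 0 lower past 2-fold), -2.44 with backgrounds replaced (0 higher, 2 lower), 1.05 under quantiles within each tissue (Lmx1b 0.16; 5 higher, 0 lower) and 3.38 with spiked-in controls (Lmx1b 2.49; 7 higher, 0 lower). With both arrays required above background 0 were higher, and 2 were lower with no filter or at 1.5-fold. On the arrays labelled KO the median (-0.53) was -0.96 under normexp and with backgrounds replaced (Lhx1 -0.77 in both; 0 higher, 1 lower in both), -0.83 under quantiles of the 4 arrays and in the authors' table, -0.81 under median centring (1 lower in each of these), 2.09 under quantiles within each tissue (7 higher) and 1.33 with spiked-in controls (6 higher). Of 25719 genes there, 19975 were at least 2-fold higher under quantiles within each tissue and 16668 with spiked-in controls. With both arrays required 1 factor was higher, and at 1.5-fold 1 was lower. Medians of lists with at least 4 measured genes that were past 2-fold reversed between tissues in WT: under quantiles within each tissue the other interneuron factors became 1.54, paralogs 1.30 and brainstem markers 0.22, with spiked-in controls 3.90, 3.64 and 2.56 and T cell markers 1.05, and with backgrounds replaced glutamate genes -0.10. With spiked-in controls 10 further list medians in the duodenum, all nearer to 0, changed sign. Under normexp 8 of 16 list medians in the spinal cord and 4 of 13 in the duodenum changed sign. The other settings changed 1 to 3 of the 16 in the spinal cord. Between tissues on the arrays labelled KO, 3 of 16 changed sign under quantiles within each tissue and 3 of 16 with spiked-in controls. The arrays' scaling moves all genes between the tissues, as the median gene shows (-0.63 at the 75th percentile, 2.08 under quantiles within each tissue, 4.41 with spiked-in controls); the cause of the other changes was not tested. Among the values of single factors under alternatives, 74 stayed within 1 technical SD, 60 moved further and 6 that had been past 2-fold changed sign. Values under 2-fold that changed sign are not among these 6. In the spinal cord, for example, normexp turned Lmx1b from 0.17 to -1.84 and Gata3 from 0.08 to -1.77.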
